A study of Mus musculus with 12 samples.

Results

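The genes described here belong to the ATF4 arm of the cellular stress response (Atf4, Asns, Ddit3, Trib3, Chac1 and Sesn2) and to the branched-chain aminotransferase pair (Bcat1 and Bcat2). They were picked by symbol from a list of 9, and 8 of the 9 had a row in the deposited table of 16353 genes. Atf5 was not analysed here. The RNA came from CD8 T cells of mice on the CBA/J background that carry the KB5 T cell receptor, sorted from spleen with antibodies against that receptor and CD8 to 95% purity. For inflamed cells, mice received 10000000 C57BL/6 splenocytes intravenously as the source of H2b antigen, and into the peritoneum 0.5 mg of anti-CD154, an antibody to CD40 ligand, and 100 µg of LPS, a bacterial cell wall component that acts on Toll-like receptor signalling. For tolerized cells the splenocytes and the antibody were given without LPS, for activated cells the splenocytes alone, and naive cells were from untreated mice. Spleens of treated mice were taken after 12 h. Each group had 3 libraries.

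Whether the libraries, described as independent, came from separate or pooled mice is not stated, so the p-values below measure only the spread between these libraries. Age and sex were not given in the sources used here, and the labels' extraction text speaks of mouse embryonic fibroblasts, which does not match sorted T cells. Library totals ran from 29335723 to 84533097 reads. The summed level of 11 T cell markers was 4352 to 4580 CPM (counts per 1000000 reads, scaled between libraries) in inflamed, 3470 to 4188 CPM in tolerized, 3081 to 4346 CPM in activated and 5584 to 6845 CPM in naive libraries. Transcripts of other cells were present too. The summed level of 15 macrophage and monocyte markers was 16.3 to 537 CPM in inflamed, 55.7 to 138 CPM in tolerized, 58.3 to 728 CPM in activated and 731 to 1896 CPM in naive libraries. The 9 erythroid markers summed to 1002 to 2405 CPM in naive libraries. They summed to 20.1 to 124 CPM in inflamed, 52.1 to 157 CPM in tolerized and 40.8 to 303 CPM in activated libraries. For 9 B cell markers the sums were 431 to 549 CPM in naive, 102 to 148 CPM in inflamed, 100 to 213 CPM in tolerized and 120 to 154 CPM in activated libraries. Summed dendritic cell and platelet markers were also highest in naive libraries, while summed NK cell markers were lowest there. Most of the NK cell sum came from Eomes and Prf1. Eomes had 3.72 to 4.46 CPM in naive and 132 to 472 CPM in the other libraries, and Prf1 37.3 to 62.7 and 103 to 311 CPM. Klrk1 was also lowest in naive libraries, but Ncr1 (1.95 to 2.26 CPM) and Klrb1c (0.394 to 0.719 CPM) were highest there. Klrc1 overlapped, and Klra4 and Klra8 were barely detected. The part of such cells in the differences from naive cells was not tested. In bulk RNA, fewer cells of a type and less RNA per cell cannot be told apart.

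When amino acids run short or unfolded proteins collect, kinases phosphorylate the translation factor eIF2, most protein synthesis slows, and the ATF4 message is translated more because of short reading frames ahead of its coding sequence. ATF4 then switches on genes for making and importing amino acids and, under lasting stress, genes such as Ddit3 and Trib3 that are tied to arrest and death. T cells that leave the resting state have a large demand for amino acids, and the aminotransferases BCAT1 (in the cytosol) and BCAT2 (in mitochondria) move the amino group of leucine, isoleucine and valine to alpha-ketoglutarate. Since ATF4 is controlled in large part at translation, its RNA level does not measure its activity.

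The sequences just upstream of Asns and Chac1 and a stretch at the start of Trib3 are shown because these 3 genes are the ones among the 8 whose promoter windows hold the ATF4 binding pattern TGATGNAA, the core of the C/EBP-ATF response element. Capitals mark the match. The sequences are from RefSeq on build GRCm38.p6, written 5′ to 3′ on the strand of the gene. The Asns stretch is chr6:7693210-7693459 on the minus strand, the Chac1 stretch is chr2:119350992-119351241 on the plus strand, and the Trib3 stretch is chr2:152344028-152344057 on the minus strand.
Asns: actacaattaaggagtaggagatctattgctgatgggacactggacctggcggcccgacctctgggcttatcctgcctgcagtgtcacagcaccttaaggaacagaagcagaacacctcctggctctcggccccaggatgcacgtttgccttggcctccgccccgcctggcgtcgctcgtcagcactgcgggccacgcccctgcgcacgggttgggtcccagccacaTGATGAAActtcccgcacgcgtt
Chac1: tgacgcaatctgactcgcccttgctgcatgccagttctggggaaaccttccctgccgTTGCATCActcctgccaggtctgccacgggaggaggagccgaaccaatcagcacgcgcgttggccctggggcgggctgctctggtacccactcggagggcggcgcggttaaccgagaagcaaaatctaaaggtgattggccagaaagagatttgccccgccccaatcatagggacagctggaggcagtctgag
Trib3: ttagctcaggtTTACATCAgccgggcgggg
The Asns match, TGATGAAA, began 23 bases before the annotated start. The Chac1 match lay on the opposite strand 193 bases before the start, and read from that strand it has the form TGATGCAA. The Trib3 match, also on the opposite strand, lay 15 bases after the start, within the transcribed part. Both strands were searched from 250 bases before to 50 bases after each annotated start, and 3.97% of all 32851 such windows held TGATGNAA. The narrower TGATGCAA was in 0.895% of windows. No match to TGATGNAA was found in the windows of Atf4, Ddit3, Sesn2, Bcat1 or Bcat2. The ER stress pattern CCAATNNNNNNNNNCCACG and the E-box CACGTG, held by 0.119% and 7.15% of all windows, matched in none of the 8 genes. A match is a string of letters and not a measured binding site.

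Exposure to antigen was accompanied by higher Atf4, Asns and Bcat1 and lower Ddit3 in all 3 exposed groups, while Bcat2 did not pass the test in any comparison. Called means an adjusted p under 0.05 in limma-trend over 12499 tested genes. Of the 8 genes, 4 were higher and 1 was lower in inflamed than in naive cells, where 72.4% of all tested genes were called (36.9% higher and 35.5% lower). Chac1 is among the 4, and it passed the expression filter only through exposed libraries, which favoured its difference from naive cells. In tolerized against naive cells 3 were higher and 2 lower, with 73.3% of all tested genes called (37.4% higher and 35.9% lower). In activated against naive cells 3 were higher and 1 lower, with 70.7% of all tested genes called (35.3% in each direction). The members' counts, 5, 5 and 4 of 8, are near these shares, so by count the genes did not stand apart. By library size alone the split was 4 higher and 2 lower in inflamed, 3 and 3 in tolerized, and 3 and 3 in activated cells. The 3 comparisons share the naive libraries. The median log2 difference of the 8 genes from naive cells was 0.87 in inflamed, 0.12 in tolerized and 0.21 in activated cells, and that of all tested genes lay between -0.04 and -0.01.

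**Figure D1:**
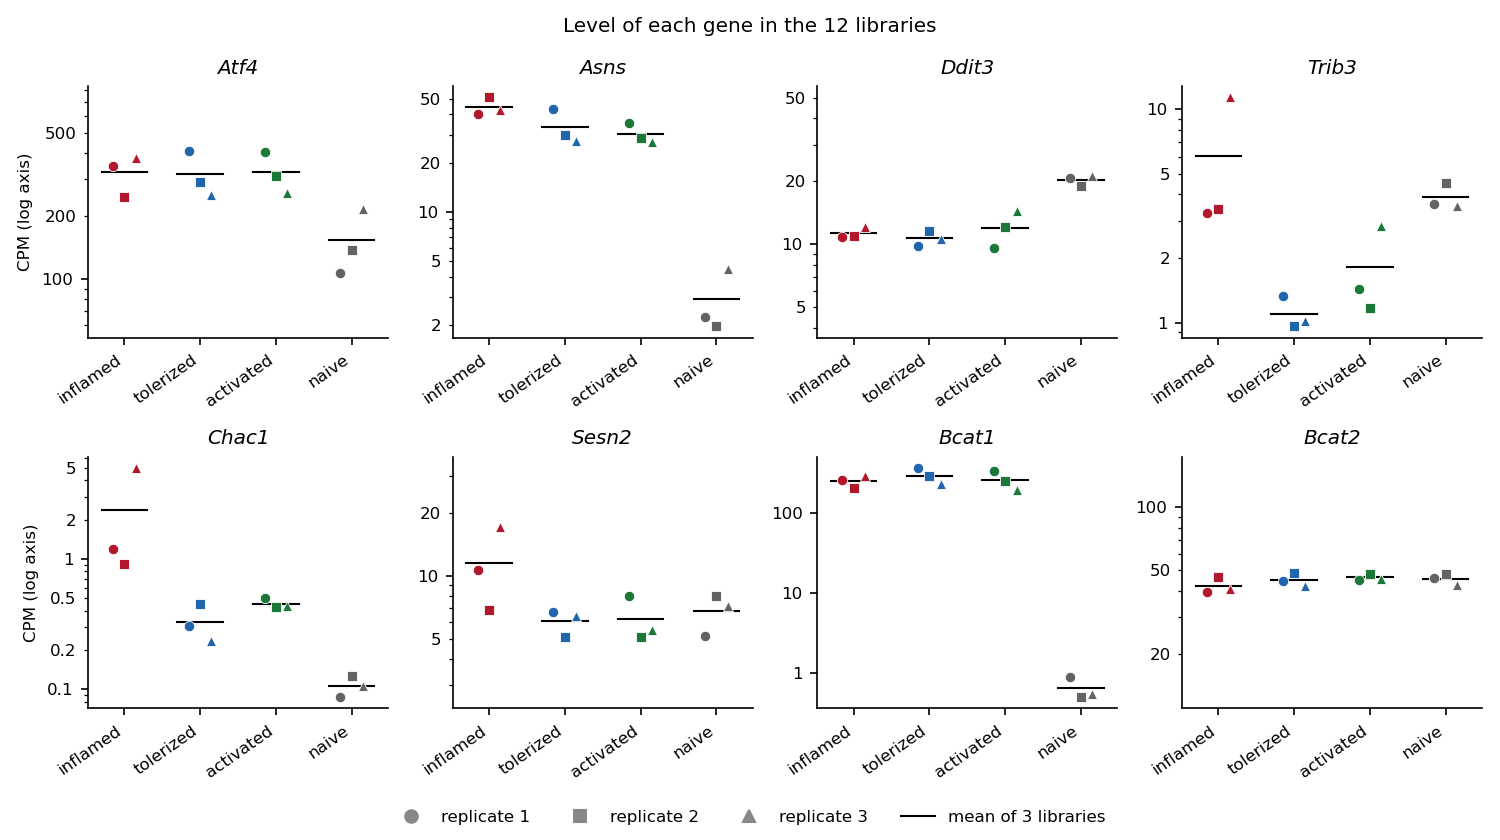
Level of each of the 8 genes in each library, in CPM on a log axis, with the groups from left to right inflamed, tolerized, activated and naive. Symbols mark libraries by replicate and the line is the mean of 3. Bcat1 and Asns are high in the 9 exposed libraries and low in the naive ones, Ddit3 is highest in naive cells, and 1 inflamed library stands above the other 2 in Trib3 and Chac1.

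Atf4, the transcription factor at the head of the response, lies on build GRCm38.p6 at chr15:80255184-80257545. It stood at 346, 246 and 380 CPM in inflamed, 408, 292 and 251 CPM in tolerized, 404, 310 and 256 CPM in activated and 107, 137 and 215 CPM in naive libraries (replicates 1, 2 and 3, an order kept below). Every exposed library was above every naive one, and the 3 exposed groups overlapped. The log2 difference from naive cells, on the log2(CPM + 1) scale used for all log2 values here, was 1.11 ± 0.28 in inflamed (SE, adjusted p = 0.00417), 1.07 ± 0.28 in tolerized (adjusted p = 0.0051) and 1.11 ± 0.28 in activated cells (adjusted p = 0.0046). In mean CPM this was 2.11-fold in inflamed, 2.07-fold in tolerized and 2.11-fold in activated cells. Inflamed cells differed from tolerized cells by 0.04, with a 95% interval of -0.58 to 0.65, and from activated cells by 0.00 (-0.61 to 0.62).

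Asns, which makes asparagine from aspartate and glutamine and is a standard ATF4 target, lies at chr6:7675165-7693209. Its level was 40.2, 50.9 and 42.4 CPM in inflamed, 43.2, 29.95 and 27.5 CPM in tolerized, 35.3, 28.6 and 26.9 CPM in activated and 2.26, 1.97 and 4.46 CPM in naive libraries. No exposed library came near the naive ones, and the inflamed libraries were all above the activated ones while 1 tolerized library lay within the inflamed range. Asns rose by a log2 difference of 3.59 ± 0.24 in inflamed (adjusted p = 4.46e-07), 3.18 ± 0.24 in tolerized (adjusted p = 9.95e-07) and 3.05 ± 0.24 in activated against naive cells (adjusted p = 1.56e-06). In mean CPM this was 15.4-fold, 11.6-fold and 10.4-fold. Inflamed exceeded activated cells by 0.54 ± 0.24, which missed the threshold over all genes (adjusted p = 0.489). Per kilobase of exon, Asns stayed far below Atf4 in every library: in inflamed replicate 1, for example, it had 20.9 CPM per kb against 201 CPM per kb for Atf4.

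Ddit3 encodes CHOP, the factor that ATF4 induces under lasting stress, and lies at chr10:127290793-127296291. It stood at 10.9, 10.9 and 12.1 CPM in inflamed, 9.84, 11.6 and 10.6 CPM in tolerized, 9.58, 12.1 and 14.4 CPM in activated and 20.8, 19.1 and 21.3 CPM in naive libraries. Every naive library was above every exposed one, the opposite of Atf4 and Asns in the same libraries. Ddit3 fell by a log2 difference of 0.80 in inflamed (adjusted p = 0.000577), 0.88 in tolerized (adjusted p = 0.000316) and 0.73 in activated cells (adjusted p = 0.00118), each with an SE of 0.15. The annotated span of Ddit3 overlaps Mbd6 and Mars, a methionyl-tRNA synthetase, and the sources used here do not say whether strand was used in counting. Mars averaged 299 ± 26.5 CPM in inflamed, 285 ± 43.4 CPM in tolerized, 281 ± 39.6 CPM in activated and 81.4 ± 5.73 CPM in naive cells (SD, n = 3 each). Mars thus went the other way from Ddit3, while the levels of Mbd6 are not reported here. The part of reads from either overlapping gene in the Ddit3 level was not tested.

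Trib3, a pseudokinase induced by ATF4 and CHOP that feeds back on ATF4, lies at chr2:152337425-152344060. Its level was 3.27, 3.43 and 11.4 CPM in inflamed, 1.33, 0.960 and 1.02 CPM in tolerized, 1.44, 1.17 and 2.83 CPM in activated and 3.61, 4.51 and 3.54 CPM in naive libraries. Tolerized and activated libraries were all below the naive ones, whereas the inflamed libraries overlapped the naive range and were all above the tolerized and activated ones. Trib3 fell by 1.22 on the log2 scale in tolerized against naive cells (SE 0.37, adjusted p = 0.0114). The difference of activated from naive cells was -0.84 ± 0.37 (adjusted p = 0.0607) and that of inflamed from naive cells 0.34 ± 0.37 (adjusted p = 0.419). The fall in activated cells was called in 8 of 23 alternatives and not in the others. Among the 8 were the fit of the compared groups alone (adjusted p = 0.0197) and the fit without inflamed replicate 3 (adjusted p = 0.00598). Inflamed exceeded tolerized cells by 1.56 ± 0.37 (adjusted p = 0.051) and activated cells by 1.18 ± 0.37 (adjusted p = 0.205), both short of the threshold. Without inflamed replicate 3, the difference from tolerized cells was 1.06 and passed (adjusted p = 0.0387), and that from naive cells was -0.15.

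Chac1, an enzyme that breaks down glutathione and is induced by ATF4, lies at chr2:119351242-119354326. It had 39, 47 and 201 reads in inflamed, 8, 20 and 8 reads in tolerized, 14, 16 and 23 reads in activated and 4, 12 and 4 reads in naive libraries. Scaled, this was 1.19, 0.915 and 4.99 CPM in inflamed, 0.304, 0.446 and 0.233 CPM in tolerized, 0.504, 0.426 and 0.431 CPM in activated and 0.0870, 0.125 and 0.105 CPM in naive libraries. Inflamed libraries were all above the other 9, and naive libraries were all below the other 9. Chac1 rose in inflamed against naive cells by 1.41 ± 0.33 (adjusted p = 0.00289), and its mean CPM was 22.4-fold higher; without inflamed replicate 3 these were 0.90 (adjusted p = 0.000104) and 9.98-fold. It differed from naive cells by 0.26 ± 0.33 in tolerized (adjusted p = 0.492) and 0.39 ± 0.33 in activated cells (adjusted p = 0.302), neither called. Inflamed exceeded tolerized cells by 1.15 ± 0.33 (adjusted p = 0.108) and activated cells by 1.01 ± 0.33 (adjusted p = 0.241), neither called. Without inflamed replicate 3 the difference from tolerized cells was 0.63 ± 0.11 and passed (adjusted p = 0.0151), as did those of tolerized (0.26, adjusted p = 0.0389) and activated cells (0.40, adjusted p = 0.00577) from naive cells. Chac1 reached the filter on low values in 8 libraries, all of them exposed, so a difference from naive cells was favoured by the filter. At so low a level the pseudocount sets the size: the inflamed against naive difference was 3.89 with 0.1 CPM added and 0.49 with 5 CPM added.

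Sesn2 encodes a leucine sensor that holds back mTORC1 when leucine is short, and lies at chr4:132492804-132510456. It stood at 10.7, 6.87 and 17.0 CPM in inflamed, 6.69, 5.07 and 6.43 CPM in tolerized, 7.99, 5.09 and 5.51 CPM in activated and 5.18, 7.998 and 7.19 CPM in naive libraries. The inflamed libraries were all above the tolerized ones and overlapped the others. No comparison was called: inflamed exceeded naive cells by 0.62 ± 0.28 (adjusted p = 0.0697), tolerized cells by 0.75 ± 0.28 (adjusted p = 0.233) and activated cells by 0.74 ± 0.28 (adjusted p = 0.386). Without inflamed replicate 2 the difference from naive cells was 0.92 and passed (adjusted p = 0.00975).

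Trib3, Chac1 and Sesn2 had their highest value in the same library, inflamed replicate 3. It stood at 3.40 times the mean of the other 2 inflamed libraries in Trib3, 4.74 times in Chac1 and 1.94 times in Sesn2, against 1.28 times in Atf4, 0.931 times in Asns and 1.11 times in Ddit3. Transcripts of other cell types were lowest in that library among the inflamed ones: its summed macrophage markers were 16.3 CPM against 537 and 184 CPM in replicates 1 and 2, and its summed neutrophil markers 11.5 CPM against 210 and 97.7 CPM. In the other groups neutrophil markers summed to 1.90 to 10.5 CPM in tolerized, 1.17 to 13.0 CPM in activated and 15.1 to 21.3 CPM in naive libraries. The part of these cells in the 3 genes' levels was not tested.

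**Figure D2:**
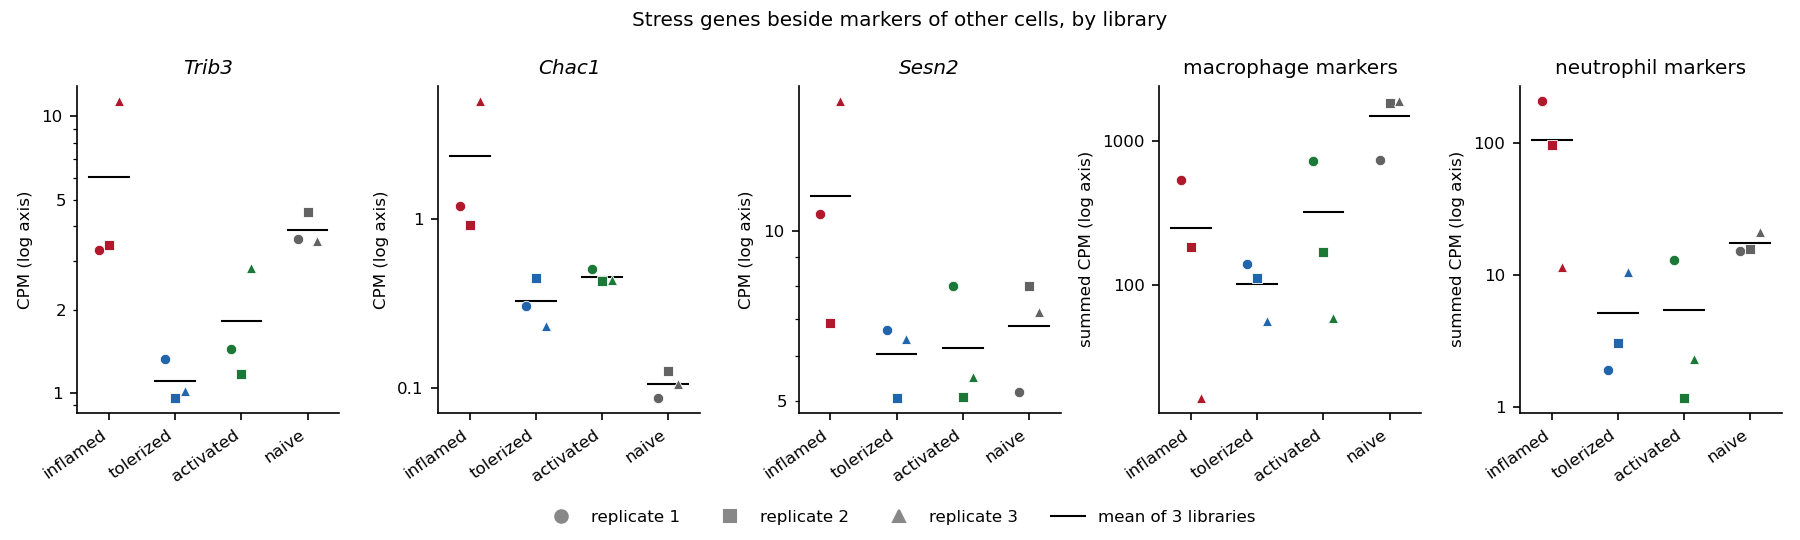
Levels of Trib3, Chac1 and Sesn2 beside the summed levels of macrophage and neutrophil markers in each library, in CPM on log axes, with inflamed, tolerized, activated and naive libraries from left to right and a line for the mean of 3. Inflamed replicate 3 is the highest library in the 3 stress genes and the lowest inflamed library in both marker sums (16.3 and 11.5 CPM).

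The comparisons among the exposed groups ask what blockade and LPS add to antigen, and none of the 8 genes was called in any of them by limma-trend. Inflamed against tolerized cells called 2.78% of all tested genes (1.66% higher and 1.12% lower; 14.7% at an unadjusted p under 0.05), and 3 of the 8 genes (Trib3, Chac1 and Sesn2) had an unadjusted p under 0.05. Inflamed against activated cells called 1.92% (1.54% higher and 0.384% lower; 10.0% at an unadjusted p under 0.05), and 4 of the 8 (Asns, Trib3, Chac1 and Sesn2) had an unadjusted p under 0.05. Tolerized against activated cells called 0% of all tested genes, and 0 of the 8 genes, against 531 (4.25%) of all tested genes, had an unadjusted p under 0.05. By limma-voom 0 of the 8 were called in each of these comparisons as well. In tolerized against activated cells the 95% intervals of the log2 difference reached from -0.65 to 0.58 for Atf4, from -0.40 to 0.66 for Asns and from -1.19 to 0.43 for Trib3. Changes within those bounds remain compatible with these data.

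**Figure D3:**
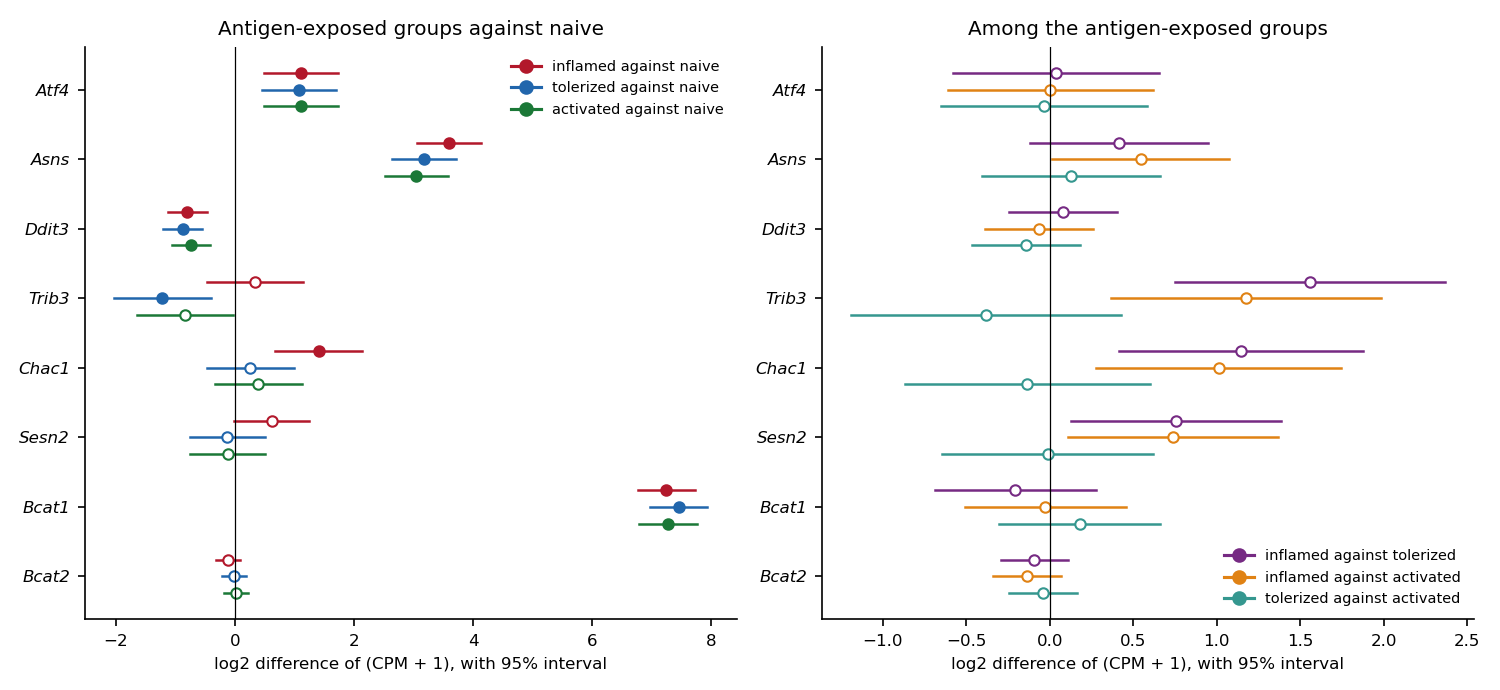
Log2 difference of each gene in the 6 comparisons, with bars for the 95% interval from limma-trend; filled points were called at an adjusted p under 0.05. Against naive cells Bcat1 lies above 7 and Asns above 3, Ddit3 lies below 0, and among the exposed groups no point is filled.

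Bcat1, the cytosolic aminotransferase, lies at chr6:144993835-145076157. It stood at 259, 206 and 285 CPM in inflamed, 362, 286 and 227 CPM in tolerized, 333, 252 and 193 CPM in activated and 0.892, 0.510 and 0.551 CPM in naive libraries, where it had 41, 49 and 21 reads. The exposed groups overlapped one another and lay far above naive cells. Bcat1 rose by 7.25 ± 0.22 in inflamed (adjusted p = 1.04e-08), 7.45 ± 0.22 in tolerized (adjusted p = 7.76e-09) and 7.27 ± 0.22 in activated cells (adjusted p = 1.25e-08). The ratio of mean CPM to naive cells was 385-fold in inflamed, 448-fold in tolerized and 398-fold in activated cells. Ordered by log2 rise over naive cells, Bcat1 came at rank 8 in inflamed, 3 in tolerized and 3 in activated cells among the 12499 tested genes. Inflamed differed from tolerized cells by -0.21, with a 95% interval of -0.69 to 0.28.

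Bcat2, the mitochondrial aminotransferase, lies at chr7:45568967-45589710. Its level was 39.4, 46.3 and 40.7 CPM in inflamed, 44.3, 48.6 and 41.9 CPM in tolerized, 45.2, 48.3 and 45.4 CPM in activated and 46.0, 48.0 and 42.7 CPM in naive libraries. All 4 groups overlapped within a narrow band. The difference from naive cells was -0.11 (95% interval -0.31 to 0.09) in inflamed, -0.02 (-0.22 to 0.18) in tolerized and 0.02 (-0.18 to 0.23) in activated cells, and none was called. These small values move with the scaling: by library size alone they were -0.44, -0.32 and -0.25, all called, and the sign for activated cells turned. By upper-quartile scaling they were called in inflamed (-0.31) and tolerized cells (-0.24).

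Per kilobase of exon, Bcat1 made up 57.4% ± 6.02 of the summed Bcat1 and Bcat2 level in inflamed, 59.3% ± 5.20 in tolerized, 55.5% ± 6.81 in activated and 0.327% ± 0.104 in naive cells (SD, n = 3 each). The pair was thus almost wholly Bcat2 in resting cells, and Bcat1 stood above Bcat2 in 8 of the 9 exposed libraries. A share of 2 genes within a library does not depend on the scaling between libraries, although it does depend on the exon lengths given in the deposited table.

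**Figure D4:**
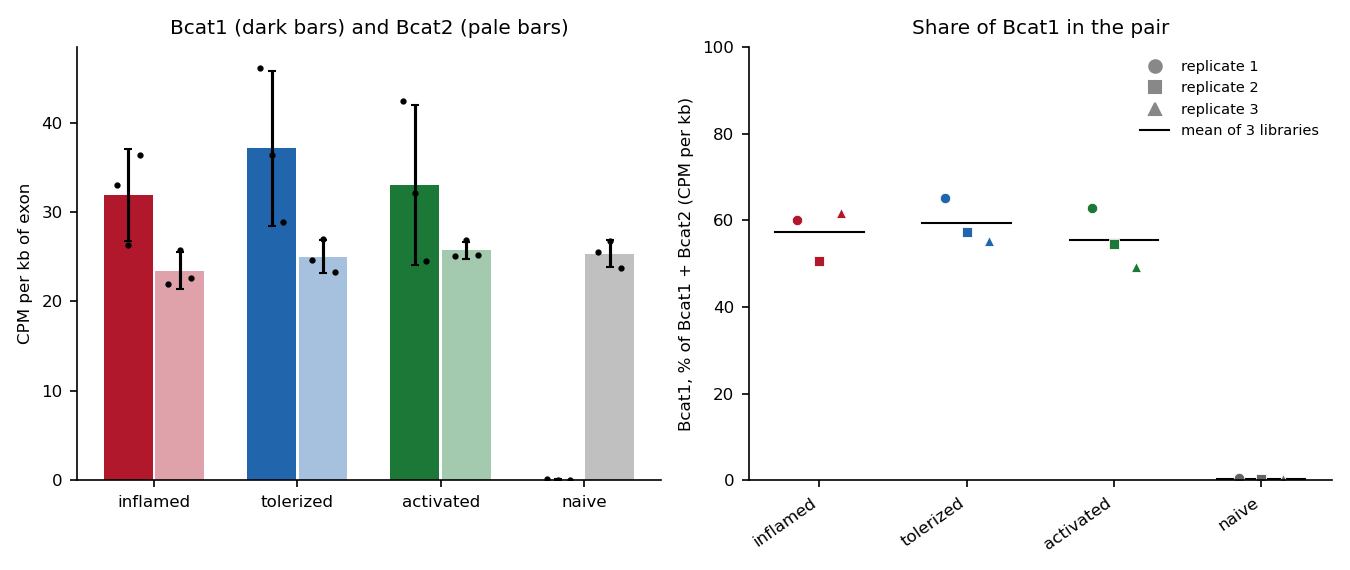
Levels of Bcat1 and Bcat2 in CPM per kilobase of exon (left, bars for the mean of 3 libraries with SD, dots for libraries), and the share of Bcat1 in their sum in percent (right, points for libraries and a line for the mean), for inflamed, tolerized, activated and naive cells. Bcat2 overlaps between all groups, while the Bcat1 share is 55.5% to 59.3% in the exposed groups and 0.327% in naive cells.

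The genes around ATF4 and the aminotransferases were counted in 11 lists holding 161 tested genes. Against naive cells 98 were higher and 33 lower in inflamed, 89 higher and 35 lower in tolerized, and 90 higher and 36 lower in activated cells, so that 81.4%, 77.0% and 78.3% were called, against 72.4%, 73.3% and 70.7% of all tested genes. Among the 17 genes of the eIF2 kinases and eIF2 machinery, 14 rose and 2 fell in inflamed, 12 rose and 1 fell in tolerized, and 12 rose and 2 fell in activated cells, and by library size alone 11 rose and 4 fell in tolerized cells. Eif2s1, the subunit that the stress kinases phosphorylate, rose by 2.77 ± 0.15 in inflamed cells (adjusted p = 1.41e-07), while Eif2ak3, the kinase PERK of the endoplasmic reticulum, fell by 1.63 (adjusted p = 9.93e-06). Of 13 tRNA synthetase and export genes, 13 rose in each exposed group, among them Gars, the glycyl-tRNA synthetase, by 2.38 ± 0.14 in inflamed cells (adjusted p = 2.12e-07).

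Of the 13 amino acid synthesis enzymes other than Asns, 12 rose and 0 fell in inflamed, 9 rose and 1 fell in tolerized, and 11 rose and 1 fell in activated cells. In these comparisons 72.4%, 73.3% and 70.7% of all tested genes were called. Psat1, an aminotransferase of serine synthesis, averaged 294 ± 25.6 CPM in inflamed, 198 ± 14.7 CPM in tolerized, 175 ± 17.6 CPM in activated and 24.3 ± 1.70 CPM in naive cells (SD, n = 3 each). Pck2, the mitochondrial enzyme that turns oxaloacetate into phosphoenolpyruvate, was the member that fell, by 1.26 in tolerized (adjusted p = 0.00153) and 1.23 in activated cells (adjusted p = 0.00197). Of 11 transporters, 9 rose and 2 fell in inflamed, 5 rose and 1 fell in tolerized, and 6 rose and 1 fell in activated cells, and by library size alone 4 rose and 2 fell in tolerized and 5 rose and 2 fell in activated cells. Slc7a5, which carries leucine and other large amino acids into T cells, rose by 2.55 ± 0.20 in inflamed cells (adjusted p = 1.42e-06).

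The list of stress effectors was divided. Of its 17 tested genes, 8 rose and 4 fell in inflamed, 8 rose and 7 fell in tolerized, and 8 rose and 6 fell in activated cells. All tested genes were divided as well, and the counts in this paragraph are to be read against their shares. Those were 36.9% higher and 35.5% lower in inflamed, 37.4% and 35.9% in tolerized, and 35.3% in each direction in activated cells. In activated cells Wars, the tryptophanyl-tRNA synthetase, rose by 1.85 ± 0.15 (adjusted p = 1.62e-06), while Bbc3, which encodes the death-promoting protein PUMA, fell by 1.12 (adjusted p = 0.00035). Wars also belongs to the tRNA synthetase and export list counted above. Downstream of the aminotransferases, the 23 genes of branched-chain amino acid breakdown were also divided, with 7 higher and 11 lower in inflamed, 7 higher and 10 lower in tolerized, and 7 higher and 11 lower in activated cells. By library size alone this split was 4 and 15 in inflamed, 6 and 14 in tolerized, and 4 and 14 in activated cells. Among the bZIP partners and relatives of ATF4, 4 of 11 rose and 2 fell in inflamed, and 3 rose and 3 fell in tolerized and in activated cells (by library size alone 3 and 3 in inflamed, and 2 and 4 in tolerized and in activated cells).

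Among the exposed groups, calls in these lists were all in the direction of higher in inflamed cells. In inflamed against tolerized cells 9 of the 161 genes were higher and 0 lower, which is 5.59% (5 genes by limma-voom). Of all tested genes 2.78% were called there (1.66% higher and 1.12% lower). In inflamed against activated cells 5 were higher and 0 lower, which is 3.11%, against 1.92% of all tested genes (1.54% higher and 0.384% lower). Tolerized against activated cells gave 0 by limma-trend and 0 by limma-voom. There 2 of the 161 had an unadjusted p under 0.05, against 4.25% of all tested genes. Eif2ak2, the interferon-induced kinase PKR that phosphorylates eIF2, stood at 85.6, 69.0 and 56.9 CPM in inflamed, 8.28, 12.8 and 25.9 CPM in tolerized, 7.24, 11.4 and 15.6 CPM in activated and 26.4, 25.8 and 23.2 CPM in naive libraries. It rose by 2.22 ± 0.35 in inflamed against tolerized (adjusted p = 0.00674) and 2.56 ± 0.35 against activated cells (adjusted p = 0.00389). Trib2, a paralog of Trib3, averaged 234 ± 36.4 CPM in inflamed, 40.1 ± 22.5 CPM in tolerized, 62.6 ± 33.4 CPM in activated and 215 ± 17.4 CPM in naive cells (SD, n = 3 each). Like Trib3 it was lower in tolerized and activated than in inflamed and naive libraries, and it was called in inflamed against tolerized (2.63 ± 0.39, adjusted p = 0.00436) and against activated cells (2.01, adjusted p = 0.0242).

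The other genes called in inflamed against tolerized cells came from the lists of ATF4 targets, apart from Xbp1. Psat1 was higher by 0.57 (adjusted p = 0.0118), Pck2 by 1.45 (adjusted p = 0.0158), Gpt2, which makes alanine, by 1.29 (adjusted p = 0.0299), and Cth, which makes cysteine, by 1.31 (adjusted p = 0.0171). Bbc3 was higher by 0.95 (adjusted p = 0.021), Vegfa, a vascular growth factor, by 1.24 (adjusted p = 0.0449), and Xbp1, a factor of the unfolded protein response, by 0.52 (adjusted p = 0.0195). By limma-voom Cth, Gpt2, Bbc3 and Vegfa missed the threshold against tolerized cells. Cth averaged only 0.510 CPM in tolerized and 2.95 ± 1.65 CPM (SD) in inflamed cells, so the size of its difference depends on the pseudocount. It was 2.37 by limma-voom. Against activated cells Psat1 (0.75, adjusted p = 0.00314), Pck2 (1.42, adjusted p = 0.0203) and Xbp1 (0.49, adjusted p = 0.0304) were called again. Fits of the compared groups alone gave fewer calls. Against tolerized cells, Trib2 (adjusted p = 0.0263), Psat1 (0.0439) and Bbc3 (0.0463) passed there, while Eif2ak2 (0.0594), Xbp1 (0.056), Vegfa (0.07), Pck2 (0.0957), Cth (0.13) and Gpt2 (0.166) did not, and with the block added 0 of all tested genes passed. Against activated cells, Eif2ak2 (adjusted p = 0.0142) and Psat1 (0.0386) passed without the block, while Trib2 (0.0908), Xbp1 (0.122) and Pck2 (0.127) did not. With a replicate block over all 12 libraries Xbp1 missed the threshold against activated cells (adjusted p = 0.0535), and in the fit of these paired groups alone with the block Pck2 passed (adjusted p = 0.0421) while Eif2ak2 (0.058), Psat1 (0.112), Trib2 (0.0598) and Xbp1 (0.166) did not. With all groups in the fit and each of the 12 libraries left out in turn, Eif2ak2 kept its call in both comparisons, Trib2 against tolerized and Psat1 against activated cells. Psat1 (adjusted p = 0.0545), Pck2, Cth, Gpt2, Bbc3, Vegfa and Xbp1 against tolerized cells all missed the threshold without tolerized replicate 2, at the highest 0.0794 for Pck2, 0.0735 for Cth, 0.136 for Gpt2, 0.107 for Bbc3, 0.174 for Vegfa and 0.0821 for Xbp1 over the libraries left out. Inflamed replicate 2 likewise decided Pck2, Cth, Bbc3, Vegfa and Xbp1 there, and inflamed replicate 1 decided Gpt2, Bbc3, Vegfa and Xbp1. Against activated cells Pck2 (up to 0.0965), Trib2 (up to 0.117) and Xbp1 (up to 0.141) missed it without inflamed replicate 2 and without activated replicate 2, among others. Of the synthesis enzymes 4 of 13 were called against tolerized cells, where 2.78% of all tested genes were called. This count was 0 without tolerized replicate 2, 2 without inflamed replicate 2, 6 without activated replicate 1 and 6 without activated replicate 3.

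**Figure D5:**
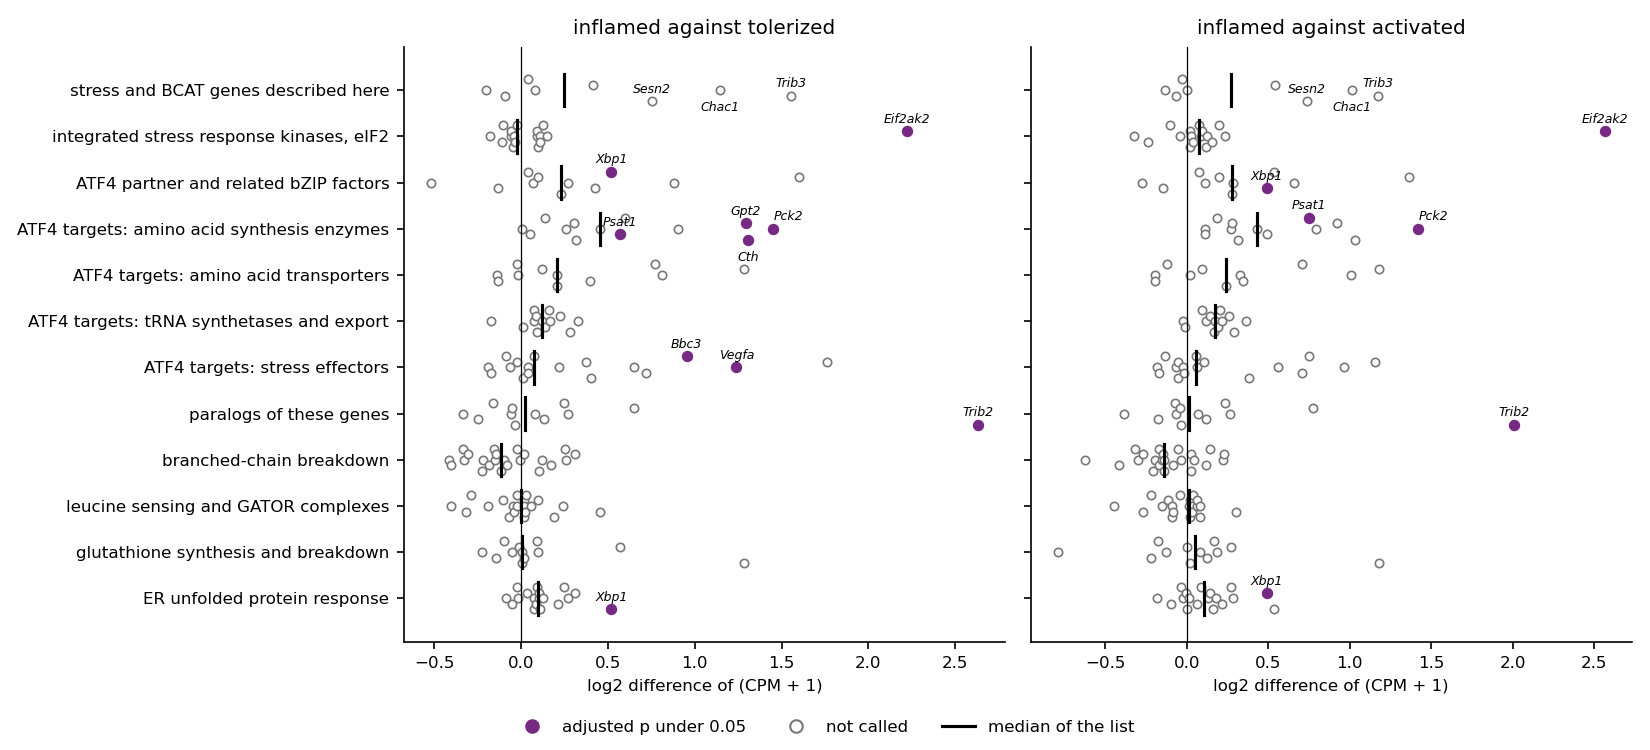
Log2 difference of inflamed from tolerized cells (left) and from activated cells (right) for the genes of each list, with 1 row a list and 1 point a gene, filled where called; the short line is the median of the row. The called points are all to the right of 0, on the left between 0.52 for Xbp1 and 2.63 for Trib2, and Trib3, Chac1 and Sesn2 are to the right of 0 but not called.

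The genes whose pattern over the 12 libraries was nearest to 7 of the 8 were searched among 10895 genes (10896 for Chac1) averaging 1 CPM or more, by the root mean square difference of centred log2 values. Trib3 was nearest to Pck2 (0.32) and A930038C07Rik (0.38), and Chac1 was nearest to Gpt2 (0.24) and Cth (0.27). Pck2 stood at 10.6, 14.0 and 22.0 CPM in inflamed, 3.91, 4.37 and 6.43 CPM in tolerized, 3.82, 4.74 and 6.56 CPM in activated and 11.4, 12.6 and 14.9 CPM in naive libraries, with inflamed replicate 3 the highest as for Trib3. Gpt2 and Cth were also highest in inflamed replicate 3, at 11.1 and 4.79 CPM. Sesn2 was nearest to the transporters Slc6a9 (0.23) and Slc16a10 (0.27), and Slc6a9 reached its highest level, 9.63 CPM, in that same library. Bcat1 was nearest to Tnfrsf9 (0.33), which encodes the costimulatory receptor 4-1BB, and Rgs16 (0.41). Atf4 was nearest to Fndc3b (0.15) and Kdm6b (0.18), Asns to Ccnb1ip1 (0.25) and Ccdc86 (0.27), and Ddit3 to Anks3 and Zmynd11. All 12 libraries share their depth and scaling between the genes compared, so these distances are descriptions.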

How the data were processed

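Per the labels' protocols, messenger RNA of the sorted cells was sequenced on an Illumina machine. The deposited table holds a read count per gene and library, whole numbers written with commas and not normalized by the authors; TopHat2, bedtools and DESeq, with mm10 and GRCm38, are named in the submitters' processing notes with no versions or roles. Because of the commas the deposited values read as text and their unit was recorded as other. For that reason limma-trend (limma 3.58.1, R 4.3.3) was the main test, and limma-voom was run on the counts as an alternative. Commas were removed, the counts became CPM by trimmed-mean-of-M scaling (30% of M and 5% of A trimmed), and genes with at least 0.258 CPM (10 reads at the median library size) in 3 libraries and at least 15 reads in all were kept, which left 12499 of 16353. The fit had 4 group means over 12 libraries on log2(CPM + 1), with Benjamini-Hochberg adjustment over all tested genes in each of 6 comparisons. It was tested on simulated data.

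Within groups, libraries correlated at 0.961 to 0.994 across genes. Even numbers made up 55.6% to 64.4% of a library's values of 20 or less, zeros apart, and 49.3% to 50.8% of those over 1000, so read pairs may be counted as 2. Of the 8 genes, 8 passed the filter. The 8 genes and the gene and marker lists were chosen with earlier results of these data known. Named genes are the 8, the 3 list genes with the smallest adjusted p in each direction against naive cells (from which the text takes examples), every list gene called among the exposed groups, and the 2 nearest patterns (those of Bcat2 are not reported here); Mars and the values of other genes shown beside a member were chosen after their values were seen. Same-numbered libraries deviated together (all correlations over 0.1) in tolerized against activated (0.19 to 0.602) and inflamed against activated cells (0.146 to 0.636) and not in the other 4 comparisons; this pairing comes from the data alone, as no label explains the numbers. Alternatives were other scalings, limma-voom, other filters and pseudocounts, the compared groups alone, a replicate block, at least 2-fold change and each library left out; the fit of the compared groups alone with the block was added after the data were seen.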

Additional observations from a re-analysis of the deposited data

How the results depend on the processing

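For the 8 genes in 6 comparisons, 1138 alternative values were computed, and 1109 kept their side of the threshold. A further 25 gained a call, and 3 lost one (Ddit3 against naive cells, where a change of at least 2-fold was required). In 1 a sign turned in a value that was called, Bcat2 in activated against naive cells at -0.25 by library size alone (adjusted p = 0.0458). Values called in neither fit could also turn their sign and are counted among the 1109. Trib3 in inflamed against naive cells, for example, went from 0.34 to -0.15 without inflamed replicate 3. The count of the 8 called in inflamed against tolerized cells was 0, and 1 by median-of-ratios scaling, 1 by upper-quartile scaling, 1 with a pseudocount of 0.1 and 1 with the replicate block (Trib3, 1.56, adjusted p = 0.0483); with 1 library left out it was 0 to 2. The replicate block changed no other count by over 1.5 times. Across alternatives the count against naive cells was 4 to 6 in inflamed, 4 to 6 in tolerized and 3 to 6 in activated cells; the lowest counts came with the 2-fold rule and, in inflamed and tolerized cells, also with the filter at 5 CPM, which removes genes. Library size alone shifted the median of all genes against naive cells by -0.27 in inflamed, -0.24 in tolerized and -0.22 in activated cells, and upper-quartile scaling by -0.17, -0.18 and -0.16; changes smaller than these rest on the scaling. Chac1 had as few as 4 reads in a naive library and Bcat1 21, so their folds over naive cells are imprecise.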

Other observations

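For lists further from ATF4, counts are to be read against the 72.4% of all tested genes called in inflamed, 73.3% in tolerized and 70.7% in activated against naive cells. The leucine sensing list lies below these shares, and the list of paralogs lies below them in inflamed and in activated cells. Of 18 genes of the unfolded protein response of the endoplasmic reticulum, 13 were higher and 3 lower in inflamed, in tolerized and in activated cells than in naive cells (12 and 5 in tolerized cells by library size alone). Of 12 genes of glutathione synthesis and breakdown, where Chac1 acts, 8 were higher and 3 lower in inflamed, and 7 higher and 3 lower in tolerized and in activated cells; by library size alone it was 5 and 3 in inflamed and 3 and 3 in activated cells. Of 20 genes of leucine sensing and the GATOR complexes, where Sesn2 acts, 9 were higher and 5 lower in inflamed, 10 higher and 3 lower in tolerized, and 9 higher and 4 lower in activated cells, but by library size alone 8 and 10 in inflamed, 9 and 9 in tolerized and 9 and 9 in activated cells. The Sesn2 paralog Sesn1 averaged 21.6 ± 7.86 CPM in inflamed, 30.2 ± 19.6 CPM in tolerized, 29.4 ± 12.8 CPM in activated and 114 ± 9.57 CPM in naive cells (SD, n = 3 each). Of the 12 paralogs of the 8 genes, 5 were higher and 2 lower in inflamed, 5 higher and 4 lower in tolerized, and 4 higher and 3 lower in activated cells.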
